A study of Mus musculus with 6 samples.

Results

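The genes described are 10 that mark pigment cells and the retinal pigment epithelium (RPE): Tyr, Tyrp1, Dct, Pmel, Mlana, Mitf, Slc45a2, Oca2, Ttr and Best1. They were picked by symbol from a table of 24062 genes. All 10 were listed there, and all 10 had enough counts to be among the 16904 genes that were tested. RNA-seq libraries had been made from mouse retinae at postnatal day 21, with 1 library per retina, in 3 retinae of the Rb1/p107/Hells TKO genotype and 3 of the Rb1/p107 DKO genotype. The strain label of every library is C57BL/6. In both groups Chx10-Cre deletes floxed Rb1, p107 is absent from the whole animal, and in the TKO the same Cre also deletes exon 12 of a floxed Hells, the gene of a chromatin remodeling helicase. This Cre is active in only some retinal progenitors, so every retina was a mosaic of recombined and unrecombined cells. The series holds no wild-type retina, so every comparison is of TKO with DKO.

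Melanin is made inside melanosomes, organelles found in melanocytes of the choroid and iris and in the pigmented epithelia of the eye, which are the RPE behind the retina and its continuation over the ciliary body and iris. Tyrosinase starts the synthesis, its relatives Tyrp1 and Dct act on later intermediates, Pmel forms the fibrils on which melanin settles, and Mitf is the transcription factor known to switch these genes on. Ttr and Best1 serve other tasks of the RPE, hormone and vitamin transport and ion conductance. The neural retina proper is unpigmented, and its dissection aims to leave the RPE and the ciliary epithelium behind.

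Because Mitf binds a short DNA element in the upstream region of melanin enzyme genes, those regions are shown first. RefSeq promoter windows (GRCm38.p6, the 250 bases before an annotated start) were found for 6 of the 10 genes, Tyr, Tyrp1, Dct, Mitf, Oca2 and Best1, with 3 windows for Mitf and 8 in all. The E-box form CATGTG, the core of the element called the M-box, was searched on both strands, where it reads CACATG on the other strand. It was found in the windows of Tyr, Tyrp1, Dct and Oca2, that is 4 of 8 windows, against 12.3% of all 32851 windows in the table. The palindromic form CACGTG was in 0 of the 8 windows and in 6.02% of all windows. The first base of the match lay 21 bases before the start in Tyr, 46 in Tyrp1 and 186 in Oca2, and the Dct window held matches at 232 and 150. The windows of Tyr at chr7:87493513-87493762 and of Dct at chr14:118052247-118052496, both on the minus strand, are given 5′ to 3′ with the matches in capitals, since these are the melanin enzymes whose counts are followed most closely here.
Tyr: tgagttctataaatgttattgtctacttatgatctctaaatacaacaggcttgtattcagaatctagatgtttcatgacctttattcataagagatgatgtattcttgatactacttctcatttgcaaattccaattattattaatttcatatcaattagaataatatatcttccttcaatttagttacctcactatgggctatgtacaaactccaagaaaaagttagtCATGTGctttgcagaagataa
Dct: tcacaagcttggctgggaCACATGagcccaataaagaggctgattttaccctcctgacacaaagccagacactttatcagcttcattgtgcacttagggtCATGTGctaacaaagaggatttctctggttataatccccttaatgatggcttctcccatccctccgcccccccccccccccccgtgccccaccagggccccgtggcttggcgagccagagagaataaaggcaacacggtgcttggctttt

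The longest stretch that holds CATGTG and is common to the windows of all 3 melanin enzymes was 10 bases long, GTCATGTGCT. It was present on either strand in 51 of the 32851 windows (0.155%), which belonged to 39 genes. To show how the flanks differ, 30 bases from each gene are given with the common stretch in capitals, from Tyr at chr7:87493516-87493545 on the minus strand, Tyrp1 at chr4:80834155-80834184 on the plus strand and Dct at chr14:118052379-118052408 on the minus strand. In Tyrp1 these bases lie upstream of the RefSeq start but inside the first exon of a longer annotated transcript. A match of letters is a description of the sequence and was not tested for binding.
Tyr: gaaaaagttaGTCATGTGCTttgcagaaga
Tyrp1: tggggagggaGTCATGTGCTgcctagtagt
Dct: tgcacttaggGTCATGTGCTaacaaagagg

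The counts on genes summed to between 10343907 and 14203098 per library. Hells, the check of the genotype labels, reached 60.8, 68.4 and 83.4 normalized counts in the TKO and 678, 523 and 395 in the DKO libraries, so the groups matched their labels. Normalized counts are read counts brought to a common library size with edgeR's TMM factors, and all values by library are given in the order of replicates 1, 2 and 3. In the whole retina, fewer cells of a type and less RNA per cell cannot be told apart. Libraries also differed in markers of other tissue. Lens markers summed to 60.1, 333 and 54.4 counts per 1e6 (CPM) in TKO and 14.7, 15.6 and 14.2 in DKO retinae. Every TKO retina was thus above every DKO retina, and TKO replicate 2 was highest. Markers of choroid and sclera stroma summed to 1522 CPM in DKO replicate 1 and between 66.6 and 290 elsewhere. Of the 20455 stroma reads in DKO replicate 1, the collagen genes Col1a2 and Col1a1 had 9256 and 8275. Fbln1, Mfap4 and Ogn of the same list were highest in DKO replicate 2 and Aspn in TKO replicate 2. The part of these tissues in the values of the pigment genes was not tested.

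None of the 10 genes differed between TKO and DKO retinae at an adjusted p of 0.05 in edgeR's quasi-likelihood test. The count was 0 in each direction, where 7.35% of the genes tested were higher and 9.20% lower in TKO retinae at that p. When at least a log2 change of 1 and 10 normalized counts on average were required as well, 1.97% of all genes were called higher and 4.38% lower, and again 0 of the 10. At an unadjusted p of 0.05, 1 of the 10 passed, Tyr, and DESeq2 called 0. The fitted log2 fold changes of TKO over DKO were above 0 for 7 genes and below 0 for 3, with a median of 0.12 against -0.011 over all genes tested. No overlap between the groups was seen for 1 of the 10 genes, again Tyr, against 38.6% of all genes in either direction and 18.0% with TKO the higher group. The labels do not say whether the retinae came from separate animals, so the p-values measure the spread between these samples.

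**Figure D1:**
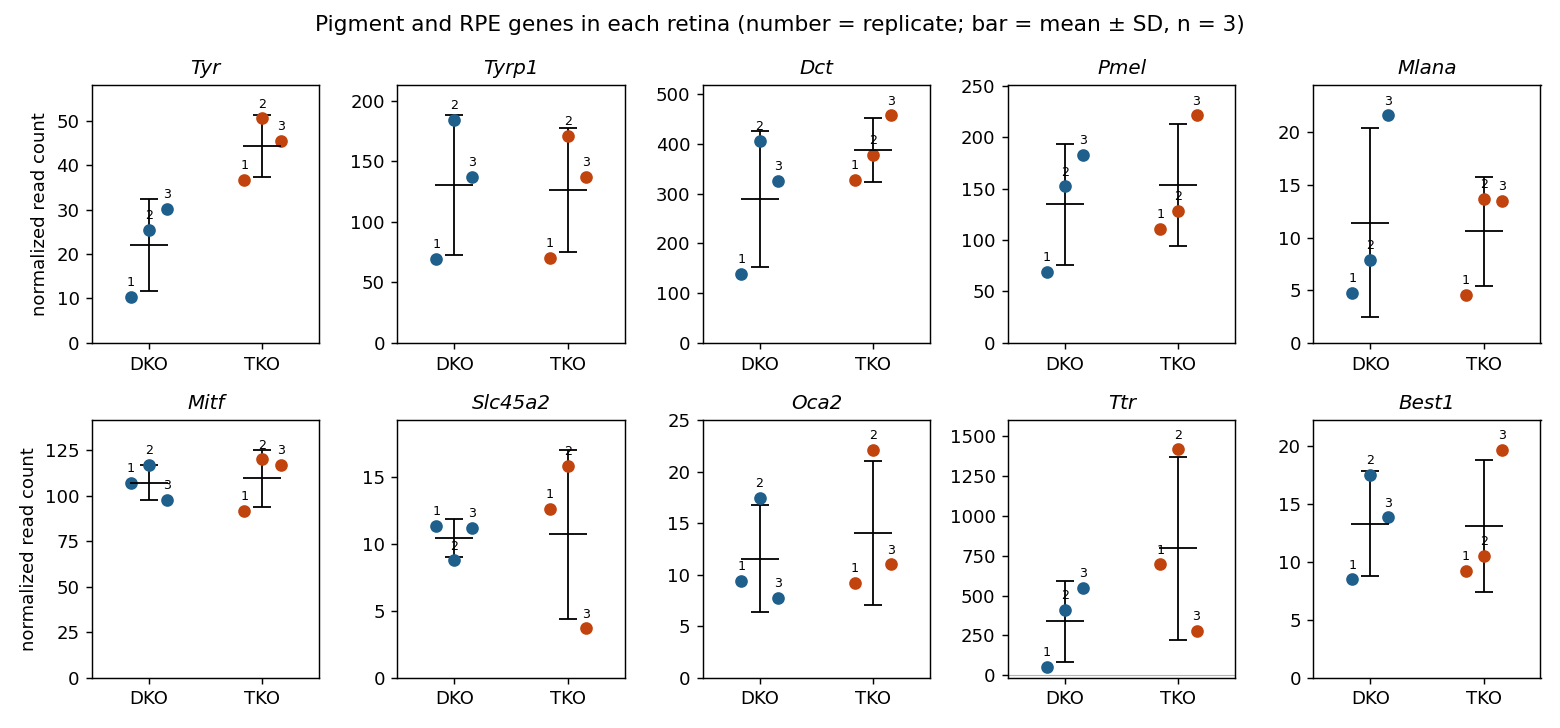
Normalized read counts (vertical axes, linear) of the 10 genes in each of 3 DKO (blue) and 3 TKO (orange) retinae, with the replicate number at each point and the mean ± SD as black bars. The groups are separate only for Tyr, and DKO replicate 1 is the lowest retina for 6 of the 10 genes.

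Among the melanin enzymes, Tyr had the largest fitted fold change, which did not pass the test. Tyr encodes tyrosinase, the rate-limiting enzyme of melanin synthesis, and lies at chr7:87424771-87493512 on the minus strand with 5 exons. It had 36.7, 50.5 and 45.4 normalized counts in TKO retinae and 10.4, 25.4 and 30.2 in DKO retinae, or 44.2 ± 6.99 and 22.0 ± 10.4 on average (SD, n = 3 each). Every TKO retina was above every DKO retina, by the smallest margin between TKO replicate 1 and DKO replicate 3. The log2 fold change was 1.00 (standard error 0.380, 95% interval 0.13 to 1.87, unadjusted p = 0.0294, adjusted p = 0.109 from edgeR), a 2.0-fold higher mean that did not pass the adjusted threshold. With 1 retina left out the log2 fold change ranged from 0.67 to 1.29 and the adjusted p from 0.0672 to 0.262, and without TKO replicate 2 and DKO replicate 1 it was 0.56 (adjusted p = 0.405 from edgeR). These are small numbers, 11 to 48 reads per library, for which counting alone gives an error of about 17.7%.

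Tyrp1, the tyrosinase-related protein that acts late in the synthesis of brown-black eumelanin, lies at chr4:80834123-80851719 on the plus strand with 8 exons. It had 70.0, 171 and 137 normalized counts in TKO and 69.6, 184 and 137 in DKO retinae. The 3 values of one genotype were nearly those of the other, with replicate 1 low in both. Its log2 fold change was -0.049 (standard error 0.395, 95% interval -0.95 to 0.86, adjusted p = 0.944 from edgeR), an interval that holds a change of up to 1.81-fold upward and down to 0.516 times the DKO level. Without TKO replicate 2 and DKO replicate 1 it was -0.63 (adjusted p = 0.385).

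Dct, or dopachrome tautomerase, which converts the intermediate dopachrome, was the most abundant of the 3 enzymes and lies at chr14:118012790-118052244 on the minus strand. It had 328, 378 and 457 normalized counts in TKO and 139, 405 and 326 in DKO retinae. DKO replicate 1 was far below the others, DKO replicate 3 was just under the lowest TKO retina, and DKO replicate 2 lay among the TKO values. For Dct the log2 fold change was 0.41 (standard error 0.330, 95% interval -0.34 to 1.17, adjusted p = 0.418 from edgeR), and it was 0.083 without DKO replicate 1 and 0.10 without TKO replicate 2 as well. The read counts of the 3 enzymes together were 379, 569 and 521 in TKO and 233, 702 and 571 in DKO retinae, and Dct made up 67.4% of their total.

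The enzymes did not keep a fixed ratio. Per Dct count there were 0.112, 0.134 and 0.0995 Tyr counts in TKO and 0.0743, 0.0626 and 0.0928 in DKO retinae, so that the groups were separate in this ratio as well (difference of the means 0.0384, two-sided exact permutation test p = 0.1, the smallest that 3 against 3 allow). There were 0.213, 0.451 and 0.301 Tyrp1 counts per Dct count in TKO retinae and 0.5, 0.454 and 0.422 in DKO retinae, where the groups overlapped (exact permutation p = 0.2). These ratios do not depend on the scaling between libraries. They were chosen after the values of the genes had been seen, and 8 ratios were computed, so that none would pass an adjustment over them.

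Of the structural proteins, Pmel encodes the amyloid fibril protein of the melanosome. The gene lies at chr10:128704195-128720238 on the plus strand. It had 111, 128 and 221 normalized counts in TKO and 68.7, 152 and 183 in DKO retinae. The ranges overlapped over most of their width, with TKO replicate 3 highest and DKO replicate 1 lowest. TKO over DKO, the log2 fold change was 0.18 (standard error 0.374, adjusted p = 0.771 from edgeR), and it was -0.17 without the first of these retinae and -0.13 without the second. Pmel overlaps Cdk2 by 837 bp outside its exons and Dgka by 105 bp within an exon, both on the opposite strand, and the strand setting of the counting is not given in the sources used here. Cdk2 had 52 to 142 counts in TKO and 314 to 510 in DKO retinae, and Dgka 124 to 169 across all 6. The part of reads from either gene in the Pmel values was not tested.

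Mlana, a small membrane protein also called MART-1 that is known to support Pmel maturation, lies at chr19:29697824-29708634 on the plus strand. Only 4, 13 and 11 reads were counted in TKO and 5, 9 and 25 in DKO retinae. Replicate 1 was again the low retina of both groups, and DKO replicate 3 was highest. The log2 fold change was -0.11 (standard error 0.638, 95% interval -1.58 to 1.35, adjusted p = 0.919 from edgeR), so a difference of 2-fold or more in either direction lies within the interval. Without TKO replicate 2 and DKO replicate 1 it was -0.71 (adjusted p = 0.633).

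Both melanosome transporters had few counts. Slc45a2, a transporter that keeps the melanosome's pH suitable for tyrosinase, lies at chr15:11000721-11029233 on the plus strand and had 11, 15 and 3 reads in TKO and 12, 10 and 13 in DKO retinae. TKO replicate 3 was the lowest and the other 5 retinae were within counting error of each other. Oca2, the melanosomal anion channel whose loss causes a form of albinism, lies at chr7:56239760-56536518 on the plus strand and had 8, 21 and 9 reads in TKO and 10, 20 and 9 in DKO retinae. Replicate 2 was highest in both genotypes, and the other 4 retinae had nearly equal counts. The log2 fold changes were 0.058 for Slc45a2 (standard error 0.502, adjusted p = 0.948) and 0.30 for Oca2 (standard error 0.486, adjusted p = 0.711), both from edgeR. Counting error alone was 30.6% of a library's value for Slc45a2 and 27.9% for Oca2. The intervals from edgeR ran from 0.469 to 2.31 times the DKO level for Slc45a2 and from 0.568 to 2.65 times for Oca2. A 2-fold higher level in TKO retinae thus lies within both intervals.

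Mitf was the steadiest of the 10 genes. This basic helix-loop-helix factor, which is needed for RPE and melanocyte identity and which also acts in other cells, lies at chr6:97807052-98021349 on the plus strand with 6 annotated transcripts from several promoters. It had 80, 114 and 95 reads in TKO and 114, 134 and 113 in DKO retinae. After normalization no retina stood apart, and all lay within 1.31-fold of each other. In edgeR the log2 fold change was 0.028 (standard error 0.174, 95% interval -0.37 to 0.43, adjusted p = 0.927 from edgeR), and it was -0.13 with total counts as the scaling and -0.0056 with upper quartile scaling. The interval excludes a change of more than 1.34-fold upward or below 0.773 times the DKO level. Dct, Mitf and Oca2 overlap entries on the opposite strand in the annotation (2 antisense RNAs and a pseudogene) that have no values in the count table.

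The secreted and membrane proteins of the RPE differed from each other. Ttr encodes transthyretin, the carrier of thyroxine and of retinol-binding protein, which the RPE and the ciliary epithelium are known to make. It had 696, 1417 and 281 normalized counts in TKO and 53.6, 411 and 549 in DKO retinae, which are 798 ± 575 and 338 ± 256 (SD, n = 3 each). TKO replicate 2 was highest and DKO replicate 1 lowest, 26.4-fold apart, and TKO replicate 3 lay below 2 of the DKO retinae. The log2 fold change was 1.24 (standard error 0.740, 95% interval -0.46 to 2.94, adjusted p = 0.277 from edgeR). Leaving out TKO replicate 2 gave 0.53, leaving out DKO replicate 1 gave 0.74 and leaving out both gave 0.028.

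Best1 encodes bestrophin-1, a calcium-activated chloride channel of the RPE's basolateral membrane, and lies at chr19:9985174-10001633 on the minus strand. It had 8, 10 and 16 reads in TKO and 9, 20 and 16 in DKO retinae. The groups covered almost the same range, and counting error alone was 27.6%. Its log2 fold change was -0.033 (standard error 0.440, 95% interval -1.04 to 0.98, adjusted p = 0.966 from edgeR).

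**Figure D2:**
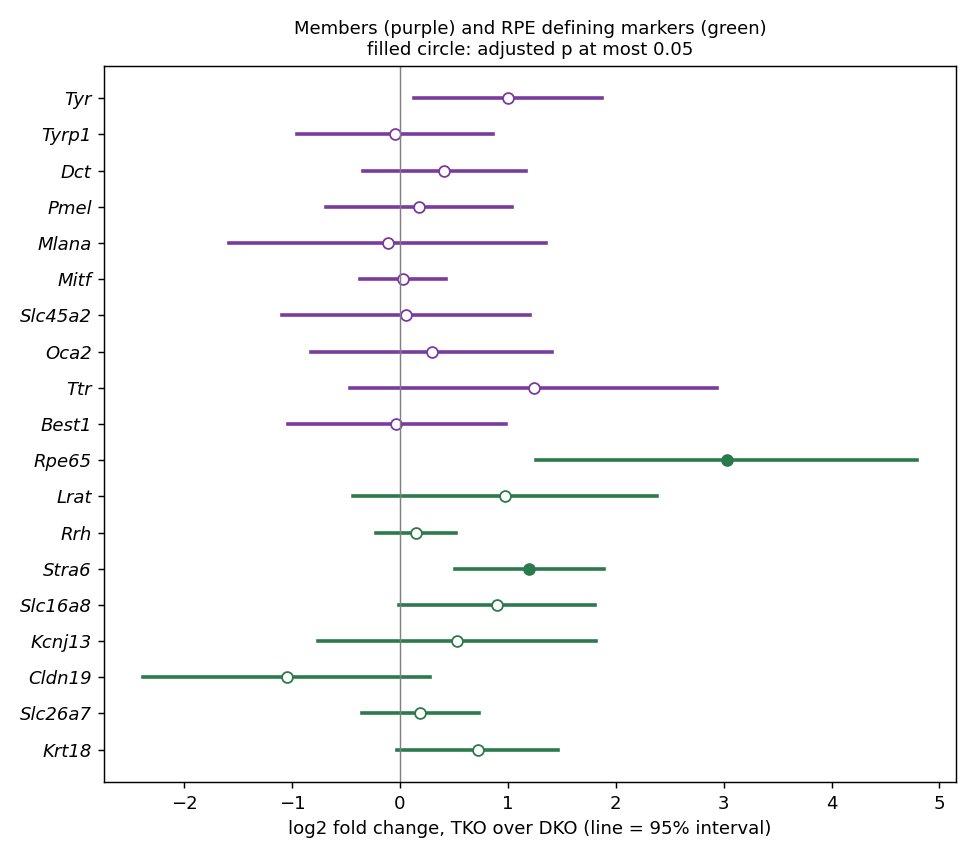
Log2 fold change of TKO over DKO (horizontal axis) with its 95% interval for the 10 genes (purple) and 9 RPE defining markers (green), where filled circles pass an adjusted p of 0.05 from edgeR. No purple circle is filled, while Rpe65 at 3.03 and Stra6 at 1.20 are.

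The levels of different genes can be compared only after division by transcript length. On that scale (TPM, reads per base of annotated exon rescaled to a total of 1e6), Ttr was highest, with 160 ± 112 TPM in the TKO group and 75.2 ± 56.0 TPM in the DKO group (SD, n = 3 each), above 91.9% of all genes with a length. Dct followed with 42.9 ± 9.28 and 35.1 ± 16.2 TPM, then Pmel with 17.7 ± 7.76 and 16.8 ± 7.01, and Tyrp1 with 11.3 ± 4.61 and 12.8 ± 5.55. Mitf had 5.00 ± 0.828 and 5.42 ± 0.598 TPM. The others had mean levels between 0.854 and 3.32 TPM in either group. Over all 6 retinae they ran in the order Mlana, Best1, Tyr, Oca2 and Slc45a2, although Tyr was above Best1 on average in the TKO group and Oca2 above Tyr in the DKO group. This placed Slc45a2 above only 34.8% of genes.

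Not every step of this order held in every retina. Dct was above Pmel, Tyrp1 above Mitf and Mlana above Best1 in 6 of 6 retinae. Ttr was above Dct in 5 of 6, the exception being DKO replicate 1. At the low end the neighbours were not separated, since Best1 was above Tyr in 4 of 6 retinae, Tyr above Oca2 in 4 of 6 and Oca2 above Slc45a2 in 3 of 6.

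The 10 genes varied more between retinae of the same genotype than most genes did. The within-group SD of the log2 normalized count had a median of 0.631 over the 10 genes and of 0.165 over the 14996 genes with a mean of at least 10 normalized counts. For 9 of the 10 it was larger than in 90% of those genes, from 0.539 in Best1 to 1.53 in Ttr, which exceeded 99.5% of them. Mitf, with 0.176, exceeded only 54% and was the exception. For the 4 genes with a mean under 20 reads per library (Mlana, Slc45a2, Oca2 and Best1), counting error is a large part of this spread, whereas it is 5.47% of a value for Dct and 4.24% for Ttr.

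The low and high retinae were largely shared. DKO replicate 1 was the lowest retina for 6 genes (Tyr, Tyrp1, Dct, Pmel, Ttr and Best1), and TKO replicate 2 was the highest for 5 (Tyr, Mitf, Slc45a2, Oca2 and Ttr). The reads of all 10 genes summed to 108, 184 and 103 CPM in TKO and 38.2, 106 and 109 in DKO retinae, with 41.2% of all these reads from Ttr and 24.7% from Dct. Without Ttr the sums were 53.2, 71.9 and 81.0 in TKO and 33.9, 74.0 and 65.5 in DKO retinae, so TKO replicate 1 moved from the third highest to the second lowest place.

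**Figure D3:**
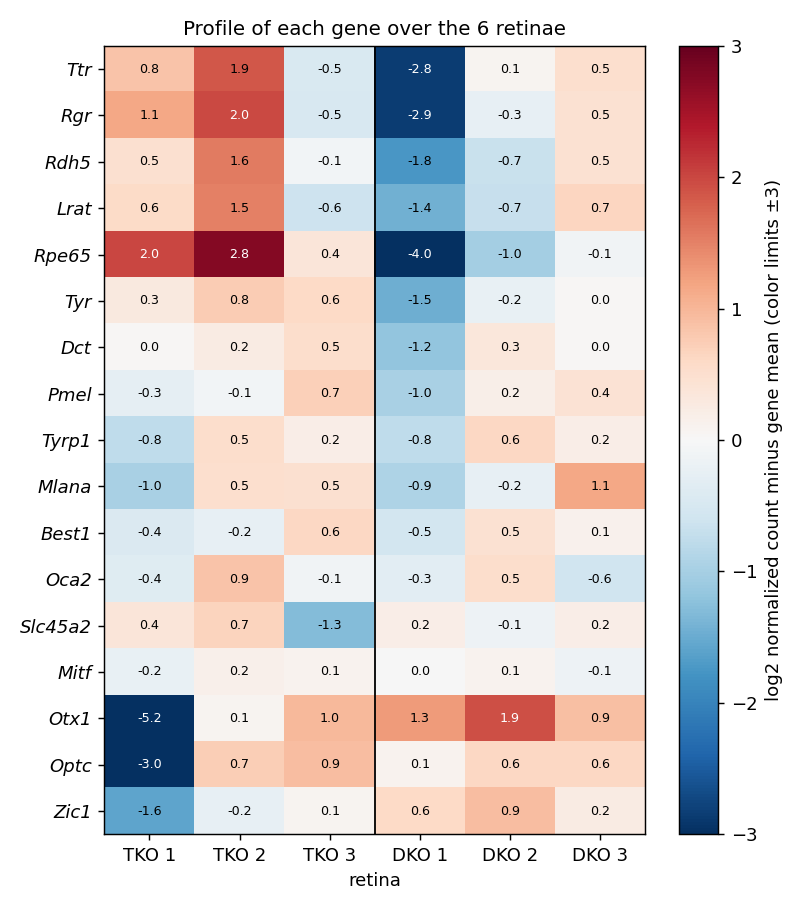
Log2 normalized count (prior count 0.5) of each gene minus its mean over the 6 retinae, as color and number, for the 10 genes, 4 visual cycle genes of the RPE (Rgr, Rdh5, Lrat and Rpe65) and 3 ciliary epithelium markers (Otx1, Optc and Zic1). Ttr and Rgr, which was chosen as the gene nearest to Ttr, have nearly the same row, with -2.84 and -2.86 in DKO replicate 1. Mitf is almost flat, and the ciliary markers are lowest in TKO replicate 1.

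Ttr had the largest root mean square difference from the mean profile of the 10 genes over the 6 retinae, 1.09 log2 units. This measure grows with the size of the swings. Ttr and the mean profile were both highest in TKO replicate 2 (1.87 and 0.53) and lowest in DKO replicate 1 (-2.84 and -0.89). Dct was nearest to that mean profile (0.260), then Tyrp1 (0.320) and Pmel (0.360). Slc45a2 was far from it (0.780), and departed most in TKO replicate 3 and DKO replicate 1. Per Dct count there were 2.12, 3.75 and 0.616 Ttr counts in TKO and 0.385, 1.01 and 1.69 in DKO retinae, a 9.74-fold range.

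Outside the 10 genes, the profile nearest to their mean among 14966 genes was that of the thiamine transporter gene Slc19a3 (0.129), followed by 2310009B15Rik (0.167), Palm3 (0.180), 1110001J03Rik (0.181), Cldn26 (0.181), Ptgds (0.183), Adamts13 (0.186), Rnls (0.187), Ndufa12 (0.188) and Mrpl34 (0.191). With 6 retinae many profiles come near to any given one. Of these 10 genes, 0 passed an adjusted p of 0.05 in edgeR (adjusted p from 0.271 to 0.858). They were picked for likeness to the mean profile of genes that did not pass, so their lack of calls carries no information. Ptgds, the gene of a prostaglandin synthase secreted into ocular fluids, had the largest swing of them, from -1.13 in DKO replicate 1 to 0.89 in TKO replicate 2 around its log2 mean.

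The gene nearest to Ttr, looked up after the values of Ttr had been seen, was Rgr, an opsin of the RPE and Muller glia, at 0.193. Rdh5 (0.594), the retinol dehydrogenase of the visual cycle, was next, and Slc6a20a (0.645) and Lrat (0.685), the enzyme that esterifies retinol, were among the first 5, together with Cox8b (0.611). Rgr had 385, 686 and 125 normalized counts in TKO and 23.5, 145 and 237 in DKO retinae. There were 1.81, 2.06 and 2.25 Ttr counts per Rgr count in TKO retinae and 2.28, 2.83 and 2.31 in DKO retinae, a 1.56-fold range while Ttr itself covered 26.4-fold. Rgr was picked as the nearest of 14966 profiles in these same retinae, so a narrow range of this ratio follows from the choice. Slightly fewer Ttr counts per Rgr count were found in every TKO retina (difference -0.434, exact permutation p = 0.1, the smallest possible). As the pair was chosen from the same values, no conclusion is drawn from this p.

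**Figure D4:**
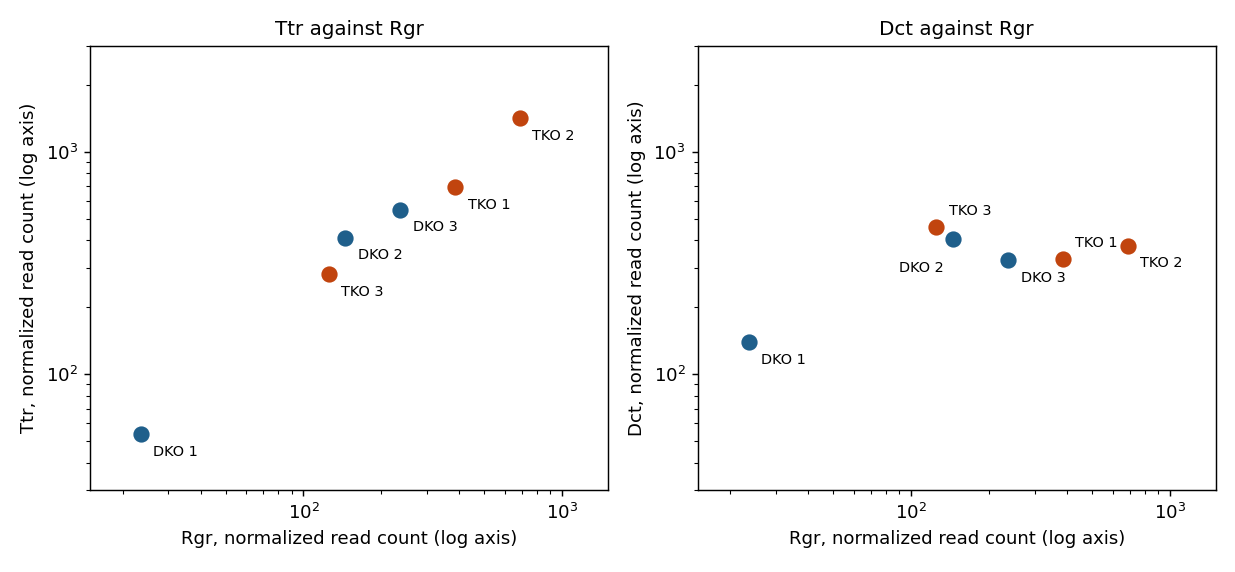
Normalized read counts of Ttr (left) and Dct (right) against Rgr in each retina, TKO orange and DKO blue, all axes logarithmic. Ttr rises with Rgr from DKO replicate 1 (23.5 for Rgr, 53.6 for Ttr) to TKO replicate 2 (686 and 1417), while Dct lies between 326 and 457 in 5 of the 6 retinae. Rgr was chosen as the gene nearest to Ttr in these retinae, so the rise of Ttr with it follows from the choice.

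RPE tissue was compared through markers other than the 10 genes. Of 24 RPE markers, 23 were tested, 6 were higher and 1 was lower in TKO retinae at an adjusted p of 0.05 from edgeR. Over all genes tested, the shares were 7.35% higher and 9.20% lower. The median log2 fold change was 0.76 against 0.12 for the pigment genes. The largest change was that of Rpe65, the isomerase that regenerates visual chromophore, with 154, 258 and 49.1 normalized counts in TKO and 1.88, 18.4 and 35.4 in DKO retinae (log2 fold change 3.03, standard error 0.770, adjusted p = 0.0324). The call was lost without TKO replicate 1, TKO replicate 2, DKO replicate 1 or DKO replicate 2, and with a robust dispersion (0.0817). Stra6, the receptor for retinol-binding protein and so a partner of the complex that Ttr carries, rose by 1.20 on the log2 scale (adjusted p = 0.0311), and Enpp2, Tmem27 and Slc6a20a rose by 1.07, 1.24 and 1.95. With 1 retina left out the Enpp2 call held in all 6 fits. Those of Stra6 and Slc6a20a were lost without the same 4 retinae as that of Rpe65 (adjusted p up to 0.118 and 0.134), and that of Tmem27 without TKO replicate 2, DKO replicate 1 or DKO replicate 2 (up to 0.0858). Rlbp1, also a Muller glia gene, rose by 0.76 (adjusted p = 0.00821). Lrat, Rdh5 and Rgr had log2 fold changes of 0.97, 1.21 and 1.56 that did not pass (adjusted p from 0.171 to 0.304).

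The 9 RPE defining markers, of which 2 were higher and 0 lower in TKO retinae, summed to 125, 159 and 101 CPM in TKO and 61.7, 92.5 and 105 in DKO retinae, with 0 of the 9 at zero in any library. Krt18 (655, 793 and 546 reads in TKO and 236, 529 and 787 in DKO retinae) and Rrh had the largest mean counts of the 9. In DKO replicate 1 Rrh had 283 reads while Rpe65 had 2, so the sum does not follow each marker. Set against the sum of the 9 markers within a library, the pigment genes without Ttr were counted per 100 marker counts. The values were 42.7, 45.2 and 80.2 in TKO and 55.0, 80.0 and 62.4 in DKO retinae. The difference of -9.76 was smaller than the spread between retinae (two-sided exact permutation p = 0.6). With Ttr included the values were 86.8, 116 and 102 in TKO and 61.9, 115 and 104 in DKO retinae (difference 7.98, exact permutation p = 0.8), and the difference turned to -7.86 without DKO replicate 1.

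Ciliary epithelium is the other pigmented tissue next to the retina. Its 8 markers summed to 130, 232 and 224 CPM in TKO and 147, 205 and 174 in DKO retinae, and their log2 fold changes were below 0 in 7 of 8 with a median of -1.11. At an adjusted p of 0.05 from edgeR, 0 were lower (9.20% of all genes tested) and 1 was higher (7.35%), the water channel gene Aqp1. It rose by 1.72 on the log2 scale (adjusted p = 0.00733 from edgeR). Aqp1 made up 1213 of the 1435 ciliary marker reads in TKO replicate 1 and 286 of the 1972 in DKO replicate 1. The sum in TKO replicate 1 was thus mostly Aqp1. The log2 fold changes of Otx1 and Zic1 were -1.45 and -1.04 (adjusted p = 0.227 and 0.0845). Optc, which encodes opticin of the ciliary epithelium, had 90.6, 1206 and 1368 normalized counts in TKO and 775, 1114 and 1116 in DKO retinae. TKO replicate 1 was thus the low retina for Optc, and Otx1 and Msx1 had 0 reads there. In this retina Ttr was the second highest of all while Tyrp1, Mlana and Oca2 were at or near their lowest values. The part of ciliary tissue in the pigment gene values was not tested.

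**Figure D5:**
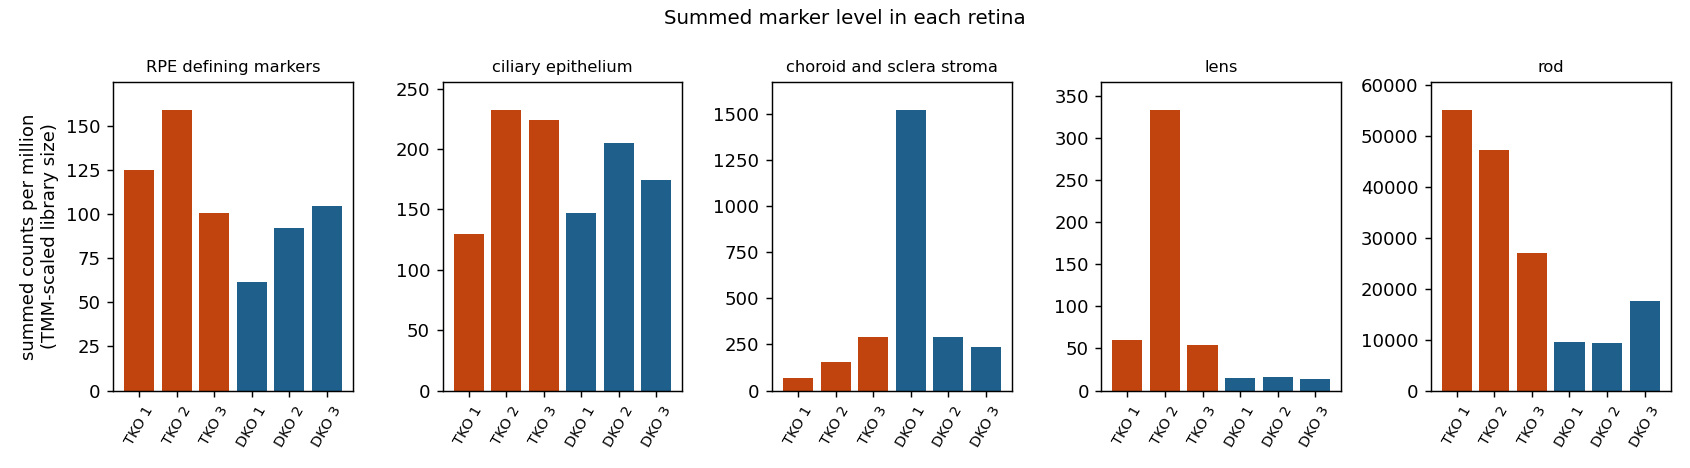
Summed CPM (TMM-scaled library sizes, linear axes from 0) of 5 marker lists in each retina, TKO orange and DKO blue. DKO replicate 1 has the fewest RPE marker counts (61.7) and the most stroma counts (1522), TKO replicate 1 the fewest ciliary counts (130), and TKO replicate 2 the most lens counts (333).

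Other genes of the pigment pathway were looked at by list, and no set test was run on the lists. Over all genes tested, 7.35% were higher and 9.20% lower in TKO retinae at an adjusted p of 0.05 from edgeR. These shares apply to the lists that follow as well. Of 17 melanocyte and melanosome genes, 15 were tested, 2 were higher and 2 lower at an adjusted p of 0.05 from edgeR (median log2 fold change -0.16). Mc1r, the melanocortin receptor, rose by 1.09 (adjusted p = 0.0466), a call that was lost without TKO replicate 1 or 2 or DKO replicate 1 or 2, and Mreg, a melanosome transfer regulator, rose by 0.64 (adjusted p = 0.00901). Kit, the stem cell factor receptor of melanocytes and of other cells, fell by 1.05 (adjusted p = 0.00733) and Gpnmb, a Pmel relative that is also made by macrophages, fell by 1.39 (adjusted p = 0.0226, and up to 0.0915 without TKO replicate 1, TKO replicate 2 or DKO replicate 2). The calls of Mreg and Kit held with any 1 retina left out. Trpm1, the most abundant of this list and a channel of ON bipolar cells as well as melanocytes, had a log2 fold change of 0.14 (adjusted p = 0.673). The defining melanocyte factor Sox10 had 5, 8 and 6 reads in TKO and 0, 2 and 5 in DKO retinae (log2 fold change 1.74, adjusted p = 0.153), and Pax3 had 0 reads in every library, which allows up to 3 reads in each.

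Of 18 genes for melanosome biogenesis and trafficking, 2 were higher and 1 was lower (median log2 fold change 0.11). The shares over all genes tested were 7.35% and 9.20%. Hps3, a subunit of the BLOC-2 sorting complex, rose by 0.60 (adjusted p = 0.0229) and Myo7a, the myosin that moves melanosomes in the RPE and also works in photoreceptors, by 0.50 (adjusted p = 0.0373). Rab32, a small GTPase that delivers melanin enzymes and is also made by myeloid cells, fell by 1.62 (adjusted p = 0.0218), and microglia markers fell with it, with 5 of 8 lower and sums of 89.8 to 162 CPM in TKO and 209 to 304 in DKO retinae. Whether these moved for a common reason was not tested. The calls of Hps3, Myo7a and Rab32 were lost without TKO replicate 1, TKO replicate 2, DKO replicate 1 or DKO replicate 2 (adjusted p up to 0.0931, 0.135 and 0.0824). The most abundant of the list, Myo5a, Ap3d1 and Vps33a, had log2 fold changes of 0.16, 0.23 and 0.15 that did not pass (adjusted p from 0.0863 to 0.330).

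Among the relatives and partners of the 10 genes, the 4 factors of the Mitf family gave 0 calls in edgeR, 1 at an unadjusted p of 0.05 and 0 in DESeq2, with log2 fold changes of -0.070 for Tfeb and 0.029 for Tfe3. Tfec, the family member known from RPE and macrophages, had 0, 0 and 1 reads in TKO and 5, 5 and 1 in DKO retinae. The 3 bestrophins likewise gave 0 calls in edgeR, 0 at an unadjusted p of 0.05 and 0 in DESeq2. Best3 had a log2 fold change of 0.19, and Best2, a ciliary epithelium channel, had 0, 40.0 and 30.7 normalized counts in TKO and 14.1, 17.5 and 17.3 in DKO retinae, with its 0 in the retina that was also low for Optc.

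Of 8 transcription factors of the RPE, Otx2 and Crx rose by 0.94 and 1.44 (adjusted p = 0.0106 and 0.00821) and Sox9 and Lhx2 fell by 1.02 and 0.68 (adjusted p = 0.0155 and 0.0440), all from edgeR. All 4 are also made by cells of the neural retina, photoreceptors in the case of Otx2 and Crx and Muller glia in the case of Sox9 and Lhx2. The Crx call held with any 1 retina left out, whereas those of Otx2, Sox9 and Lhx2 were lost without DKO replicate 1 or 2 (adjusted p up to 0.0539, 0.0546 and 0.137), and that of Lhx2 also without TKO replicate 2. The 9 rod markers rose, 9 of 9, with sums of 27034 to 54999 CPM in TKO and 9280 to 17655 in DKO retinae, and of 8 Muller glia markers 3 rose and 2 fell. Pax6, a factor of the RPE and of several retinal neurons, had a log2 fold change of -0.25 that did not pass.

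Of 9 carriers, receptors and enzymes for retinol and thyroxine, the cargo of Ttr, 3 rose and 2 fell. Rbp3, the retinoid carrier between photoreceptors and RPE that photoreceptors secrete, rose by 1.57 (adjusted p = 0.0193), as did Stra6 and the thyroid hormone receptor gene Thrb (0.60, adjusted p = 0.0472). The calls of Rbp3 and Thrb were also lost without TKO replicate 1 or 2 or DKO replicate 1 or 2 (adjusted p up to 0.0803 and 0.162). Rbp4, the plasma retinol-binding protein that Ttr carries, had 11, 3 and 4 reads in TKO and 16, 14 and 7 in DKO retinae, for which the log2 fold change was -0.68 (adjusted p = 0.458). Thra, the most abundant receptor of the list, had -0.26 (adjusted p = 0.100).

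The remaining lists concern tissue that could come along with a dissected retina. Of 10 stroma genes, 0 were called in edgeR, with 1 at an unadjusted p of 0.05 and 0 in DESeq2. Of 14 lens genes 6 rose and 1 fell, and of 6 endothelial genes 1 rose, with sums of 358 to 454 CPM in TKO and 386 to 500 in DKO retinae. The retina with the most stroma counts, DKO replicate 1, was the lowest for 6 of the 10 pigment genes, and the one with the most lens counts, TKO replicate 2, was the highest for 5.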

How the data were processed

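Gene expression was measured by RNA-seq in 3 TKO and 3 DKO retinae, grouped by the genotype in the sample titles. The values deposited by the authors are raw counts per gene, not normalized, from paired-end reads of a stranded mRNA kit. The authors' methods name STAR, HTSeq and GRCm38, up to 10 mismatches per read pair and up to 3 alignments per read, whereas the submitters' processing notes name TopHat2, featureCounts and DESeq2. The strand setting is not given in the sources used here. Genes with a sum under 10 were removed, and 16904 were tested with edgeR 4.0.16 in R 4.3.3 (TMM, quasi-likelihood F test, genotype only, Benjamini-Hochberg adjustment over all of them). A gene was called when its adjusted p did not exceed 0.05, its log2 change was at least 1 in size and its counts, normalized by DESeq2's size factors, averaged at least 10. Standard errors were obtained from the log2 change and the square root of its F value. CPM (counts per 1e6) use TMM-scaled library sizes. The edgeR test alone was tried on simulated data, with an outcome that is not reported here.

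Totals of 10343907 to 14203098 counts set the precision. The limit of a count of 0 (3 counts) covers counting error only. The 95% intervals come from the edgeR fit and also hold the spread between retinae. Coordinates and lengths come from GENCODE M21 (GRCm38), which held 22750 of the 24062 symbols (94.5%), and promoter windows from RefSeq. Alternatives were DESeq2 1.42.0, 3 other scalings, 2 other filters, robust dispersion, the replicate number as a block, no minimum fold or mean, and each retina left out. Leaving out TKO replicate 2 with DKO replicate 1 was chosen after seeing the data. Ratios within a library used an exact permutation test. Text names the 10 genes, Hells, the members of each other list past the threshold (at most 6) or with the 3 largest means where they are discussed, and the 10 nearest profiles. Some genes that this rule names are not reported here. Further genes (Rgr, Rdh5, Lrat, Slc6a20a, Cox8b, Sox10, Pax3, Tfec, Rbp4, Optc, Otx1, Msx1, Best2 and the neighbours of Pmel) were named after their values were seen. The 10 genes and all 16 lists were chosen with earlier results of these data known. Asip was not found in the table, and Mfrp and Pax3 had 0 counts. The tumor RNA-seq and the ATAC-seq were not analysed here.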

Additional observations from a re-analysis of the deposited data

How the results depend on the processing

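None of the 10 genes was called in either direction in any of the 16 fits (15 with edgeR, 1 with DESeq2), and 24 of the 150 alternative log2 fold changes changed sign, all of them in genes that passed no threshold. With both TKO replicate 2 and DKO replicate 1 left out, the log2 fold changes turned to -0.016 in Pmel, -0.045 in Mitf, -0.27 in Slc45a2 and -0.32 in Oca2, and moved to -0.63 in Tyrp1, -0.71 in Mlana, 0.10 in Dct, 0.56 in Tyr, 0.028 in Ttr and -0.13 in Best1. That edgeR fit could call 0 genes of the whole table in either direction (3186 had an unadjusted p of at most 0.05, 0 of them among the 10 genes, and the smallest adjusted p was 0.112), so its lack of calls carries no information. With total counts as the scaling, which moves the median of all genes to -0.17, Mitf turned to -0.13 and Slc45a2 to -0.11, and the calls over all genes were 247 higher and 983 lower in place of 333 and 741. Mitf was -0.0056 with upper quartile scaling. With 1 retina left out, the log2 fold changes ranged from -0.35 to 0.28 in Tyrp1, -0.17 to 0.47 in Pmel, -0.47 to 0.73 in Mlana, -0.045 to 0.14 in Mitf, -0.33 to 0.45 in Slc45a2, -0.20 to 0.72 in Oca2 and -0.42 to 0.22 in Best1. The counts of called genes then ranged from 312 to 1024 lower and 121 to 476 higher. They were below the full counts by more than 1.5 times without TKO replicate 1 (491 and 209), TKO replicate 2 (312 and 164), DKO replicate 1 (360 and 140) or DKO replicate 2 (350 and 121). With no minimum fold or mean they were 1556 and 1243. The pigment gene counts with Ttr per 100 RPE marker counts differed by -7.86 to 18.7, below 0 only without DKO replicate 1, and without Ttr by -21.8 to -2.67.

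With the replicate block, 75 genes were called lower and 15 higher, and Slc45a2 turned to -0.027. Across genes, retinae with the same number deviated from their groups with correlations of 0.0412, -0.0438 and -0.121, so the samples share a number only. The causes of these shifts were not tested. Depth limits what can be said of Mlana, Slc45a2, Oca2 and Best1, each with a mean under 20 reads.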
